A study of Mus musculus with 12 samples.

Results

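Costimulatory receptors and ligands were followed in MC38 tumours, grown from a colon carcinoma line of the mouse, using the 10 genes Icos, Icosl, Cd28, Cd27, Cd70, Tnfrsf9, Tnfsf9, Cd40, Cd40lg and Tnfsf4. The genes were taken by their symbols, and each symbol matched 1 row exactly among the 43698 rows of the count table. Icos and Cd28 each had 2 more rows with a suffixed name and Tnfrsf9 had 1, and the levels given below leave these out. Tumours had grown under the skin of the left flank of C57BL/6J mice, 8 weeks old when the cells were injected, and were collected on day 20. Bulk RNA-seq of whole tumours gave 12 libraries, 2 in each of 6 groups. Ctrl mice received PBS, DOX mice 14 µg of DOX (0.56 mg/kg) and DPD mice 14 µg of DPD (0.56 mg/kg), which was read as the DOX prodrug of the study's title. RP was read as Ru-PD-L1, an antibody-catalyst conjugate directed at the checkpoint ligand PD-L1, given at 20 µg (0.80 mg/kg). These 4 treatments were intraperitoneal injections every 3 days from day 9. The combined groups were read as conjugate plus DOX for R+X, since X occurs only in that drug name, and conjugate plus DPD for R+D; were these 2 readings exchanged, their values would swap. In the combined groups 14 µg of drug was injected beside the tumour 6 hours after the conjugate, whose dose there is not stated, so the route of the drug changed together with the combination. Whether both libraries of a group stem from different animals is not stated, so a p-value here reflects only how far these samples differ, in part perhaps for technical reasons.

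Library totals ranged from 46547114 to 56462259 counts. Levels are given as CPM (the count as a share of the library total, scaled to a common size) after TMM scaling, a correction for library composition, and the libraries of a group are numbered 1 and 2 only to name them. The 5 epithelial markers listed for the tumour line were low: they summed to between 10.7 and 19.4 CPM per library, with Cdh1 the most abundant. Epcam was above 1 CPM in 1 library, and Krt8 had 0 counts in 8 libraries. Other epithelial RNA was present: 8 skin markers summed to between 289 CPM in DOX 2 and 485 in RP 2, with Krt14 the most abundant. The source of that RNA was not tested. Myeloid RNA was abundant, with the macrophage gene Lyz2 between 643 and 1102 CPM. Skeletal muscle markers (12 genes) set 3 libraries apart: they summed to 257 CPM in RP 1, 96.1 in RP 2 and 335 in R+D 2, against 11.2 to 28.0 in the other 9 libraries. The 18 T cell markers summed to 126 CPM in RP 1, 110 in RP 2 and 115 in R+D 2, the same 3 libraries, against 42.7 to 80.3 in the other 9; 2 of the 18, Trbc1 and Trbc2, were at 0 in every library.

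Costimulatory receptors deliver the signal that a T cell needs beside recognition of its antigen. CD28 and ICOS belong to the immunoglobulin superfamily and bind B7-type ligands on antigen-presenting cells (CD80 and CD86 for CD28, ICOSL for ICOS). CD27, 4-1BB (Tnfrsf9), OX40 (Tnfrsf4) and CD40 belong to the tumour necrosis factor receptor superfamily; their ligands are CD70, 4-1BBL (Tnfsf9), OX40L (Tnfsf4) and CD40L (Cd40lg), and they signal through TRAF adaptors towards NF-kappaB. CD28 and CD27 are carried by resting T cells, ICOS and 4-1BB appear on T cells after activation, and CD40 sits mainly on dendritic cells, macrophages and B cells and is engaged by CD40L on activated helper T cells.

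On build GRCm38, with GENCODE M21 gene models, all 10 members are protein-coding genes. Icos (chr1:60977927-61000320, plus strand) and Cd28 (chr1:60716800-60773359, plus strand) lie close together on chromosome 1, which also holds Tnfsf4 (chr1:161395409-161418410, plus strand). Cd70 (chr17:57145997-57149777, minus strand) and Tnfsf9 (chr17:57105325-57107757, plus strand) are close neighbours on chromosome 17. The other genes are Icosl (chr10:78069302-78083913, plus strand), Cd27 (chr6:125232622-125237010, minus strand), Tnfrsf9 (chr4:150914562-150946102, plus strand), Cd40 (chr2:165055627-165072948, plus strand) and Cd40lg (chrX:57212143-57224042, plus strand). Of the 10 members, 3 had promoter entries from RefSeq (GRCm38.p6): Tnfrsf9, with 2 annotated starts, Cd27 and Icosl. The 250 bases before the downstream Tnfrsf9 start (chr4:150927749-150927998, plus strand) are shown because they held the most motif matches. Those before the Cd27 start (chr6:125237028-125237277, minus strand) are shown because Cd27 was among the receptors with the largest differences between RP and Ctrl. Sequences run 5′ to 3′, and capitals mark matches to the NF-kappaB consensus, the AP-1 motif TGANTCA and the STAT motif TTCNNNGAA.
Tnfrsf9: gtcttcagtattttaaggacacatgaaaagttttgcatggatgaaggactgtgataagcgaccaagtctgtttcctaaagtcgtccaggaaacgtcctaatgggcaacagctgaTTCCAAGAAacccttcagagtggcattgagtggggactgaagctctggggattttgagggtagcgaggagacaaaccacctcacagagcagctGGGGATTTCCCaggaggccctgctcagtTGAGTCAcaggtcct
Cd27: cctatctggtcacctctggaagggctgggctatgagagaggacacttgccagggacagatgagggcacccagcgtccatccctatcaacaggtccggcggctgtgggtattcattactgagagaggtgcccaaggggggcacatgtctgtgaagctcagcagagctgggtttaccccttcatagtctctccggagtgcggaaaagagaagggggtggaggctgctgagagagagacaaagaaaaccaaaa
Both strands were searched, and positions count back from the start, with -1 the base before it. The Tnfrsf9 window held 2 overlapping NF-kappaB matches at -43 to -34 and -42 to -33, the AP-1 match at -15 to -9 and the STAT match at -136 to -128. Of 32851 RefSeq promoter windows of the same length, 5.00% held an NF-kappaB match, 6.75% an AP-1 match and 7.02% a STAT match. The short NFAT core GGAAA, present in 55.6% of windows and not capitalised, occurred 3 times in this Tnfrsf9 window, once inside the NF-kappaB matches at -38 to -34, and 1 time in the Cd27 window. The windows of the upstream Tnfrsf9 start (chr4:150919905-150920154) and of Icosl (chr10:78069118-78069367) held no capitalised motif. No window held TATAAA, found in 12.4% of all. A match is a description of the letters and was not tied to any level.

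The 4-1BB pair was by far the most abundant. Scaled by exon length, in CPM per kb of exon, the median level over the 12 libraries was 12.8 for Tnfsf9, 8.33 for Tnfrsf9, 1.01 for Icosl, 0.765 for Cd40, 0.350 for Icos, 0.330 for Cd27, 0.141 for Tnfsf4, 0.0777 for Cd28, 0.0452 for Cd70 and 0 for Cd40lg. Between neighbours in this order the ranges over libraries overlapped, except between Tnfrsf9 (lowest 5.68) and Icosl (highest 1.37), where all 12 libraries kept the order. Tnfsf9 stood above Tnfrsf9 in 11 of 12 libraries, whereas Icos stood above Cd27 in 8 of 12 and Tnfsf4 above Cd28 in 8 of 12. The suffixed rows are not in these levels. In RP 2 they held 127 and 127 counts beside 271 for Icos, and 71 and 69 beside 104 for Cd28. The order was not computed with them added and could then differ. The members also differed in how far they varied: the highest CPM was 14.8 times the lowest for Cd28, 8.03 times for Icos and 5.46 times for Cd27, but 2.70 times for Tnfrsf9 and 1.92 times for both Tnfsf9 and Icosl. Cd40 and Tnfsf4 lay between, at 3.18 and 3.12 times.

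**Figure D1:**
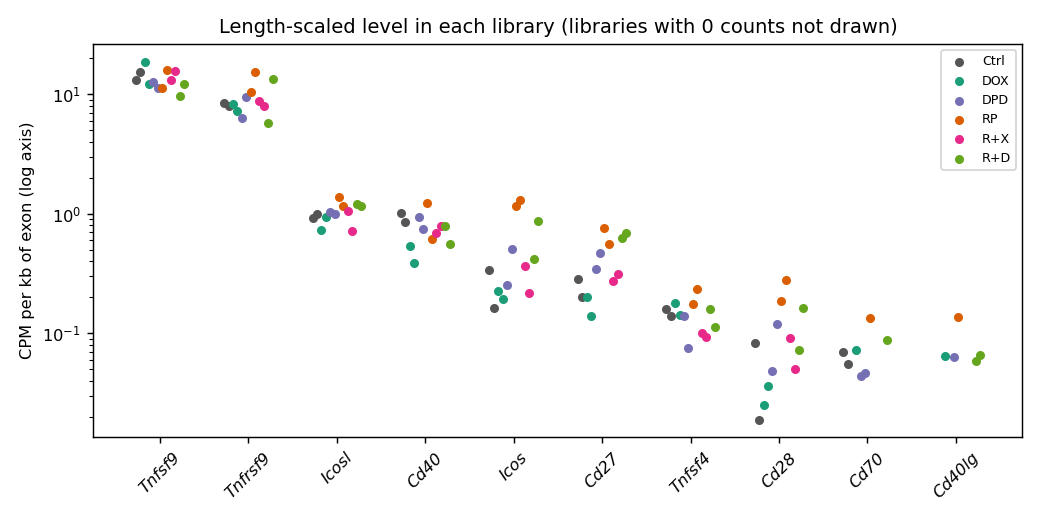
Length-scaled level (CPM per kb of exon, log axis) of each member in each library, 1 point per library coloured by group, ordered by median. Tnfsf9 and Tnfrsf9 lie between 5.68 and 18.6, above every other member, and the Icos and Cd28 points spread most; libraries with 0 counts of Cd70 (5 of 12) or Cd40lg (7 of 12) are not drawn.

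Icos, the inducible receptor of activated T cells, had its highest levels in RP. It was at 1.16 and 0.557 CPM in Ctrl, 0.772 and 0.668 in DOX, 0.864 and 1.73 in DPD, 3.93 and 4.48 in RP, 1.24 and 0.746 in R+X, and 1.43 and 2.95 in R+D. Both RP libraries exceeded the other 10, R+D 2 came next, and R+X lay within the range of Ctrl, DOX and DPD. The counts behind these levels ran from 24 in Ctrl 2 to 271 in RP 2.

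Cd28, the primary costimulatory receptor, followed a like order at lower levels. It was at 0.510 and 0.116 CPM in Ctrl, 0.154 and 0.223 in DOX, 0.294 and 0.727 in DPD, 1.13 and 1.72 in RP, 0.559 and 0.306 in R+X, and 0.441 and 0.992 in R+D. Both RP libraries were above all others, while Ctrl, DPD, R+X and R+D overlapped. In the unsuffixed row Ctrl 2 rested on 5 counts and RP 2 on 104.

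Cd27, which supports the survival of primed T cells, was at 0.667 and 0.464 CPM in Ctrl, 0.463 and 0.324 in DOX, 0.808 and 1.08 in DPD, 1.77 and 1.29 in RP, 0.642 and 0.727 in R+X, and 1.45 and 1.59 in R+D. Both RP and both R+D libraries stood above the other 8. Both DPD libraries stood above those of Ctrl, DOX and R+X.

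Tnfrsf9, the receptor 4-1BB, was at 22.9 and 21.8 CPM in Ctrl, 22.4 and 19.7 in DOX, 17.1 and 25.5 in DPD, 28.1 and 41.8 in RP, 24.0 and 21.7 in R+X, and 15.5 and 36.2 in R+D. The 2 libraries of R+D were the lowest and the second highest of the 12, so this group did not have a common level. RP lay above Ctrl without overlap. Its ligand gene Tnfsf9 was flat by comparison, at 16.9 and 19.8 CPM in Ctrl, 24.0 and 15.7 in DOX, 16.3 and 14.4 in DPD, 14.4 and 20.4 in RP, 16.8 and 20.2 in R+X, and 12.5 and 15.6 in R+D. DOX held the highest library and one in the lower range, and RP overlapped Ctrl.

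Icosl, the ligand of ICOS, was at 4.26 and 4.62 CPM in Ctrl, 3.37 and 4.33 in DOX, 4.76 and 4.60 in DPD, 6.34 and 5.37 in RP, 4.86 and 3.31 in R+X, and 5.60 and 5.35 in R+D. The 4 libraries of RP and R+D were the highest, by a small margin. Tnfsf4, the OX40 ligand, had 7 to 26 counts per library and was at 0.294 and 0.255 CPM in Ctrl, 0.331 and 0.263 in DOX, 0.257 and 0.138 in DPD, 0.320 and 0.429 in RP, 0.186 and 0.172 in R+X, and 0.294 and 0.207 in R+D.

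Cd40, the receptor on antigen-presenting cells, was lowest in DOX. It was at 3.41 and 2.90 CPM in Ctrl, 1.81 and 1.32 in DOX, 3.20 and 2.53 in DPD, 4.18 and 2.08 in RP, 2.36 and 2.68 in R+X, and 2.68 and 1.88 in R+D. Both DOX libraries lay below the other 10, the nearest being R+D 2, and RP held both the highest library and one of the lower ones.

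Cd70, the CD27 ligand, and Cd40lg, the CD40 ligand, were close to undetected. Cd70 had 0 to 6 counts per library, with 0 in 5 libraries, and 22 counts in all. Cd40lg had 0 to 9, with 0 in 7 libraries, and 25 counts in all; its highest value was 0.169 CPM in RP 1. A count of 0 allows up to 3 counts, between 0.0495 and 0.0696 CPM depending on the library, by counting error only. Both genes failed the filter on low counts, no fold is given for them, and differences between groups were not detectable at this depth.

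**Figure D2:**
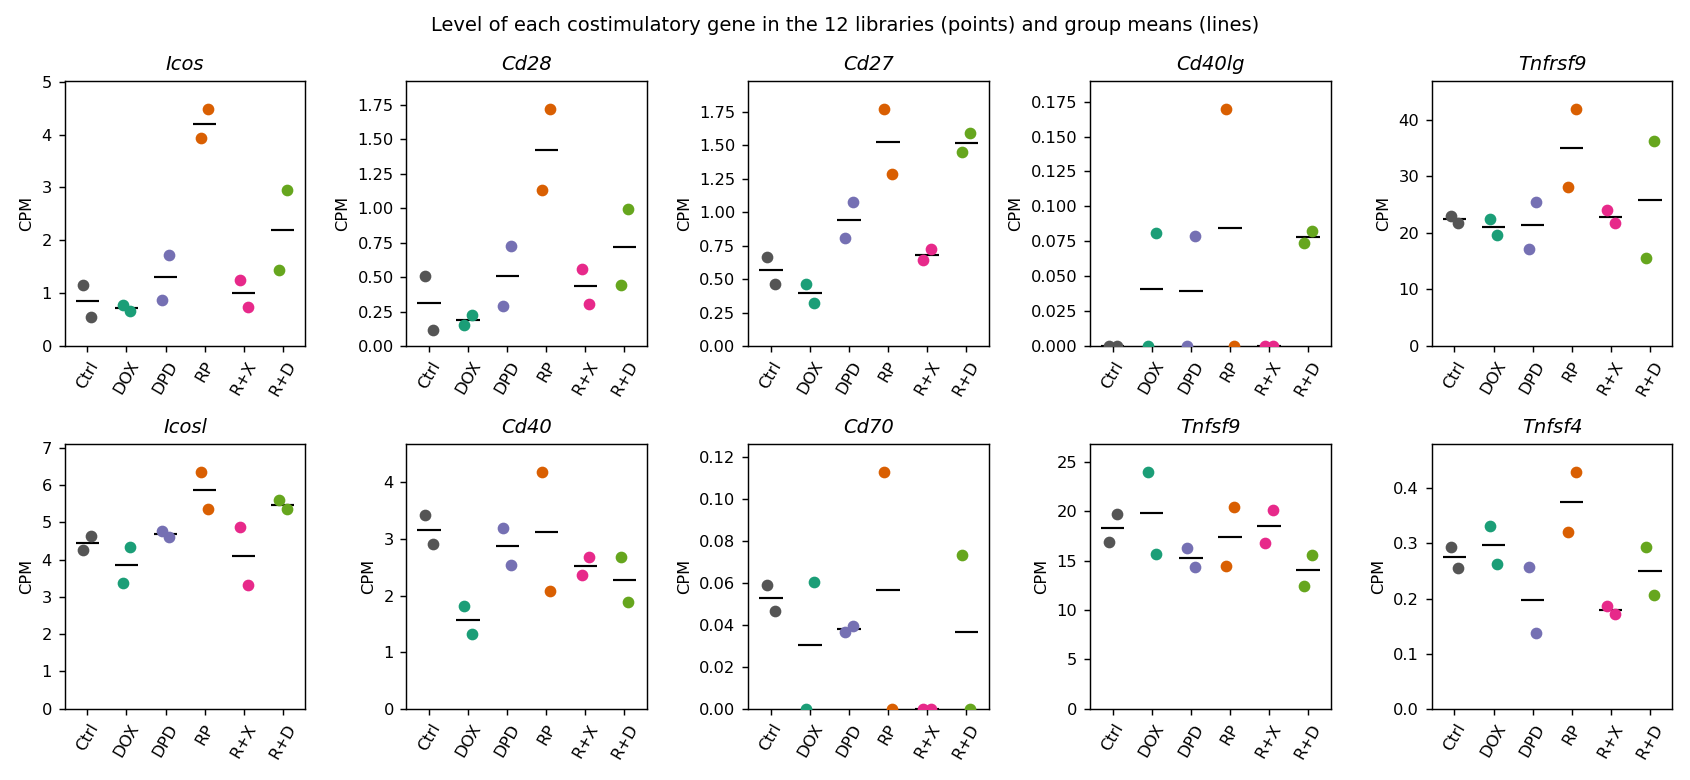
CPM of each member (linear axes from 0, a scale per gene) in the 6 groups; points are the 2 libraries and black lines the group means. Every member except Tnfsf9 has its highest point in RP, and for Icos and Cd28 both RP points lie above all others. Cd40 has its lowest points in DOX, and Cd70 and Cd40lg stay at or under 0.169.

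The conjugate against PBS asked whether costimulatory genes differed after treatment with Ru-PD-L1 alone. Icos, Cd28 and Cd27 had the largest differences, but none of the 8 members tested passed the adjusted threshold of 0.05. Icos was 2.28 ± 0.51 (SE) log2 units higher in RP (95% interval 1.16 to 3.41, adjusted p = 0.127 by edgeR with Benjamini-Hochberg adjustment), Cd28 2.16 ± 0.74 (0.52 to 3.80, adjusted p = 0.173) and Cd27 1.43 ± 0.39 (0.56 to 2.29, adjusted p = 0.146). For each of the 3 both RP libraries were above both Ctrl libraries, as they also were for Icosl, Tnfsf4 and Tnfrsf9. With so few libraries in each group a lack of overlap carries little weight, and its share over all genes was not counted. The other 5 members had edgeR differences between -0.07 (Tnfsf9) and 0.64 (Tnfrsf9), with Icosl at 0.40, Tnfsf4 at 0.44 and Cd40 at -0.01. Over the 8 members the median difference was 0.54 and 6 were positive, against a median of 0.06 and 53.9% positive over the 19525 genes tested. In whole tumours, more cells of a type and more RNA per cell cannot be told apart. Calls were rare in this comparison for all genes: edgeR called 3 of 19525 (0.0154%), while 3 of 8 members and 21.4% of all genes had an unadjusted p under 0.05.

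The call differed between tools and between sets of libraries fitted. DESeq2 called 2 of the 7 members it tested, Icos (2.28, adjusted p = 0.00253) and Cd27 (1.42, adjusted p = 0.0490), beside 6.78% of all genes; edgeR on the RP and Ctrl libraries alone called 1 of 8, Icos (2.26, adjusted p = 0.0284), beside 2.77% of the 18262 genes then tested; limma-voom called 0 of 8. Cd28 moved most when a library was left out, from 2.16 to 3.59 without Ctrl 1, when Ctrl was Ctrl 2 alone with its 5 counts. Without Ctrl 2 it was at 1.47. Icos was at 2.91 without Ctrl 1, 1.86 without Ctrl 2, 2.34 without RP 1 and 2.17 without RP 2, and Cd27 at 1.71, 1.19, 1.14 and 1.62. None of these was called, and the edgeR adjusted p of all 3 genes was 0.782 without Ctrl 2.

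**Figure D3:**
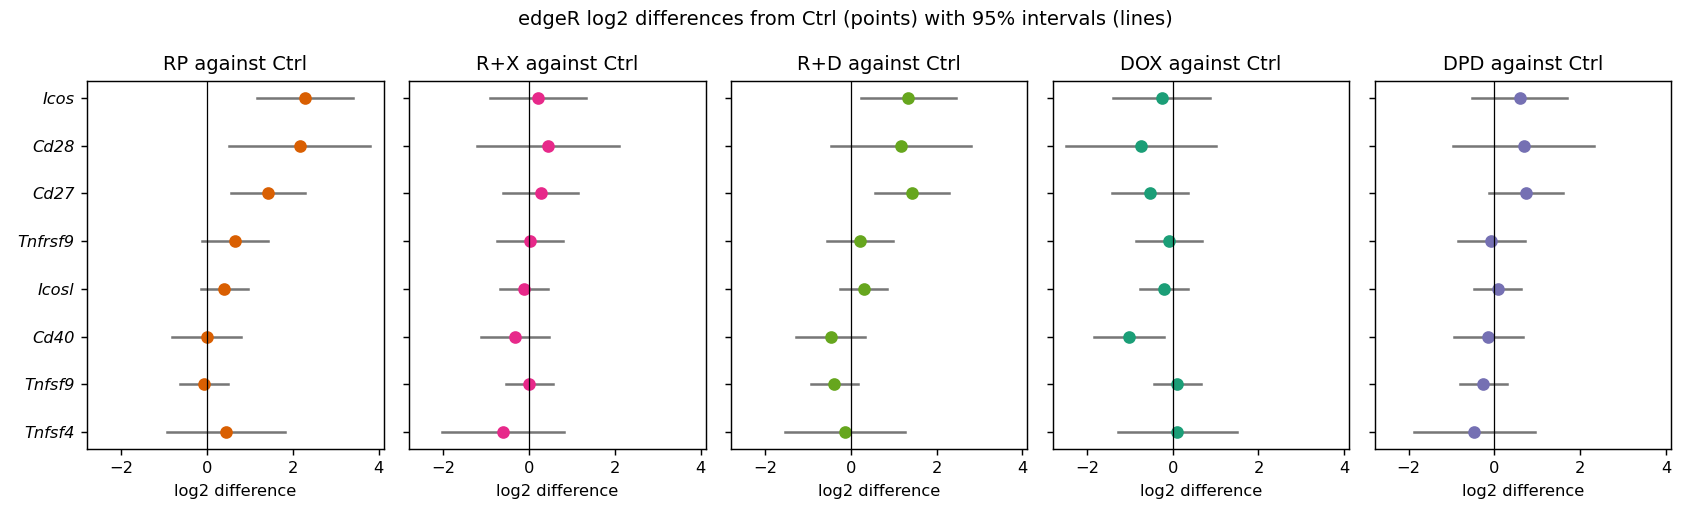
edgeR log2 difference of each tested member from Ctrl in the 5 treated groups (points) with 95% intervals (lines). Intervals that leave out 0 are those of Icos, Cd28 and Cd27 in RP, Icos and Cd27 in R+D and Cd40 in DOX; none of these differences passed the threshold after adjustment over 19525 genes.

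Among the other treatments, R+D had the nearest pattern to RP. Against Ctrl, Cd27 was 1.42 ± 0.39 and Icos 1.34 ± 0.50 log2 units higher in R+D (both adjusted p = 0.314, edgeR), and without R+D 2 Icos was at 0.72 and Cd27 at 1.34. The groups did not overlap for either gene, nor for Icosl (higher in R+D) or Tnfsf9 and Cd40 (lower). Here too the share of all genes without overlap was not counted, and a lack of overlap carries little weight. edgeR called 0 of 8 members in R+D against Ctrl beside 0% of all genes, with 2 members and 15.4% of genes at an unadjusted p under 0.05. In R+X against Ctrl all 8 members lay between -0.61 (Tnfsf4) and 0.44 (Cd28), 0 of them called or at an unadjusted p under 0.05. In DPD against Ctrl they lay between -0.47 (Tnfsf4) and 0.73 (Cd27), again 0 called and 0 at that level. DOX differed in another gene: Cd40 was lower than in Ctrl, with a log2 difference of -1.02 ± 0.37 (95% interval -1.83 to -0.20, adjusted p = 1.00 by edgeR), the single member at an unadjusted p under 0.05, where 2.08% of genes stood. DESeq2 and limma-voom also called 0 members in these 4 comparisons, and edgeR called 0% of genes in each.

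Beside Cd40 in DOX, markers of the cells that carry it were lower in DOX than in Ctrl for 7 of 10 macrophage genes (edgeR median -0.22), 5 of 10 dendritic cell genes (median -0.13) and 3 of 5 tested B and plasma cell genes (median -0.84), with 0 called in each list. The 8 B and plasma cell markers summed to 1.57 and 1.82 CPM in DOX against 3.79 and 2.92 in Ctrl. The macrophage markers summed to 1551 and 1101 CPM in DOX against 1533 and 1682 in Ctrl, with Lyz2 the most abundant of them, and the dendritic cell markers to 572 and 405 CPM against 482 and 481, with Fscn1 the most abundant. The part of these cells in the Cd40 difference was not tested.

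Averaged over the groups, the conjugate contrast set RP, R+X and R+D against Ctrl, DOX and DPD. Cd28 was 1.27 ± 0.43 (adjusted p = 0.183, edgeR), Icos 1.17 ± 0.29 (adjusted p = 0.147) and Cd27 0.97 ± 0.22 log2 units higher (adjusted p = 0.145) in the groups with the conjugate. In each case the 6 libraries of one side overlapped those of the other. The differences averaged here were unequal: for Icos 2.28 in RP against Ctrl, 0.46 in R+X against DOX and 0.76 in R+D against DPD. For Cd27 they were 1.43, 0.80 and 0.69, and for Cd28 2.16, 1.18 and 0.49, in that order. In R+X and R+D the route of the drug differed as well. Of 8 members, 7 were positive, with a median of 0.29 against 0.03 over all genes; 0 were called, beside 0.0154% of genes, and 3 had an unadjusted p under 0.05, beside 20.3% of genes. DESeq2 called 2 of 7, Icos (1.16, adjusted p = 0.0126) and Cd27 (0.96, adjusted p = 0.0239), beside 5.46% of genes. Without DOX 2, edgeR called the same 2 genes of 8, Icos (1.13, adjusted p = 0.0424) and Cd27 (0.89, adjusted p = 0.0391), beside 15.6% of genes.

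Comparisons of the combinations with the conjugate alone were added after the data were seen. Icos was lower in R+X than in RP, with an edgeR difference of -2.08 ± 0.50 (adjusted p = 0.257), as were Cd28 (-1.72 ± 0.72, adjusted p = 0.524) and Cd27 (-1.16 ± 0.38, adjusted p = 0.374). For each of these genes both R+X libraries lay below both RP libraries, as they also did for Icosl, Tnfsf4 and Tnfrsf9. Such a lack of overlap carries little weight with so few libraries, and its share over all genes was not counted. edgeR called 0 of 8 members and 0% of genes, DESeq2 called 1 of 7, Icos (-2.08, adjusted p = 0.0119), beside 1.81% of genes, and limma-voom called 0. In R+D against RP all 8 differences were negative, from -0.99 (Cd28) to -0.01 (Cd27), with 0 at an unadjusted p under 0.05. The conjugate's difference with DOX less that without it (R+X minus DOX, less RP minus Ctrl) was -1.82 ± 0.71 for Icos (adjusted p = 0.998, edgeR), the single member at an unadjusted p under 0.05. The same contrast with DPD gave -1.53 ± 0.69 for Icos and 0 members at that level. In both contrasts the route of the drug changed too, and the conjugate dose in the combination is not stated. Dependence on the drug cannot be told apart from these. R+X against DOX and R+D against DPD, where the route of the drug also changed, had 0 members called or at an unadjusted p under 0.05. All 8 members were tested in these 6 comparisons, edgeR called 0% of genes in each, and apart from Icos in R+X against RP DESeq2 and limma-voom called 0 members.

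DOX and DPD, read as parent drug and prodrug, were given at the same dose and route, so 8 members could be compared at matched dose; adjusted p-values run over all 19525 genes. In DPD against DOX, Cd27 was 1.26 ± 0.40 log2 units higher (95% interval 0.38 to 2.14) and Cd40 0.88 ± 0.37 (0.06 to 1.69), both at adjusted p = 0.979 by edgeR. The groups did not overlap for either gene, nor for Icos, Cd28 and Icosl (higher in DPD) or Tnfsf4 (lower). With so few libraries this carries little weight, and the share of all genes without overlap was not counted. The remaining edgeR differences were 1.42 for Cd28 (-0.29 to 3.13), 0.85 for Icos (-0.27 to 1.97), 0.28 for Icosl (-0.27 to 0.83), 0.02 for Tnfrsf9 (-0.75 to 0.79), -0.37 for Tnfsf9 (-0.92 to 0.18) and -0.58 for Tnfsf4 (-1.98 to 0.83). All 15 tested T cell markers were also higher in DPD than in DOX (median 0.88, 5 with an unadjusted p under 0.05, 0 called), and with their mean as a covariate Cd27 was at 1.03, Cd40 at 0.97, Cd28 at 0.16 and Icos at -0.27. The intervals of Cd28, Icos and Tnfsf4, fitted without the covariate, include differences of more than 1 log2 unit. Without DPD 2, Cd28 was at 0.62 and Icos at 0.26; without DOX 1, Tnfsf9 was at -0.03; and Tnfsf4 ran from -1.10 without DPD 1 to -0.21 without DPD 2.

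With the conjugate in both arms, R+D against R+X, Cd27 was 1.15 ± 0.38 log2 units higher (95% interval 0.30 to 2.00, adjusted p = 0.910 by edgeR) and Icos 1.14 ± 0.50 (0.04 to 2.24, adjusted p = 0.942). The groups did not overlap for either gene, nor for Icosl and Tnfsf4 (higher in R+D) or Tnfsf9 (lower). Again this carries little weight, and its share over all genes was not counted. In the same comparison all 15 tested T cell markers were higher (median 1.13, 11 with an unadjusted p under 0.05), as were all 12 muscle markers (median 3.08), with 0 called. With the T cell marker mean as a covariate, Cd27 was at 0.83, Icos at -0.30 and Cd28 at -0.86. With the muscle marker mean instead, they were at 0.94, 0.41 and -0.03. The part of T cell or muscle RNA in these differences was not tested. Without a covariate the others were 0.72 for Cd28 (-0.88 to 2.33), 0.48 for Tnfsf4 (-0.94 to 1.90), 0.42 for Icosl (-0.13 to 0.97), 0.18 for Tnfrsf9 (-0.60 to 0.95), -0.14 for Cd40 (-0.94 to 0.66) and -0.40 for Tnfsf9 (-0.95 to 0.15). In both prodrug comparisons edgeR called 0 of 8 members beside 0% of genes, DESeq2 and limma-voom called 0, and 2 members had an unadjusted p under 0.05, as did 4.29% of genes in DPD against DOX and 5.27% in R+D against R+X. The R+D side rested on 1 library for several genes: without R+D 2, which also held the muscle RNA, Icos was at 0.52, Cd28 at 0.02 and Tnfrsf9 at -0.57. Without R+X 2, Cd28 was at 0.34 and Icosl at 0.16.

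Icos, Cd27, Cd28 and the ligand gene Icosl were correlated with T cell marker RNA, and Tnfrsf9 missed the threshold. Over the 12 libraries the mean log2 CPM of the 15 T cell markers that passed the low-count filter was correlated with Icos (Pearson r = 0.899, permutation adjusted p = 0.00064; Spearman rho = 0.902, adjusted p = 0.0012), Icosl (r = 0.861, adjusted p = 0.00108; rho = 0.804, adjusted p = 0.00512), Cd27 (r = 0.838, adjusted p = 0.00197; rho = 0.874, adjusted p = 0.00148) and Cd28 (r = 0.808, adjusted p = 0.00316; rho = 0.804, adjusted p = 0.00512). The unadjusted p-values of r were 8.0e-05, 0.00027, 0.00074 and 0.00158 in that order. Without the 2 libraries farthest from the median marker level, RP 1 and R+X 2, r was 0.895, 0.727, 0.912 and 0.844. Tnfrsf9 was next (r = 0.601, p = 0.0376, adjusted p = 0.0601; rho = 0.608, p = 0.0404, adjusted p = 0.0647). The threshold was also missed by Tnfsf9 (r = -0.416, p = 0.178; rho = -0.517), Cd40 (r = 0.361, p = 0.25; rho = 0.280) and Tnfsf4 (r = 0.283, p = 0.375; rho = 0.210). These 8 relations were added after the data were seen, used 2-sided permutation tests and were adjusted together. Within groups, where a pair of libraries gives 1 deviation each, none of them passed an exact exchange test: Icos had r = 0.769 (p = 0.0938) and Cd27 0.332 (p = 0.219).

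**Figure D4:**
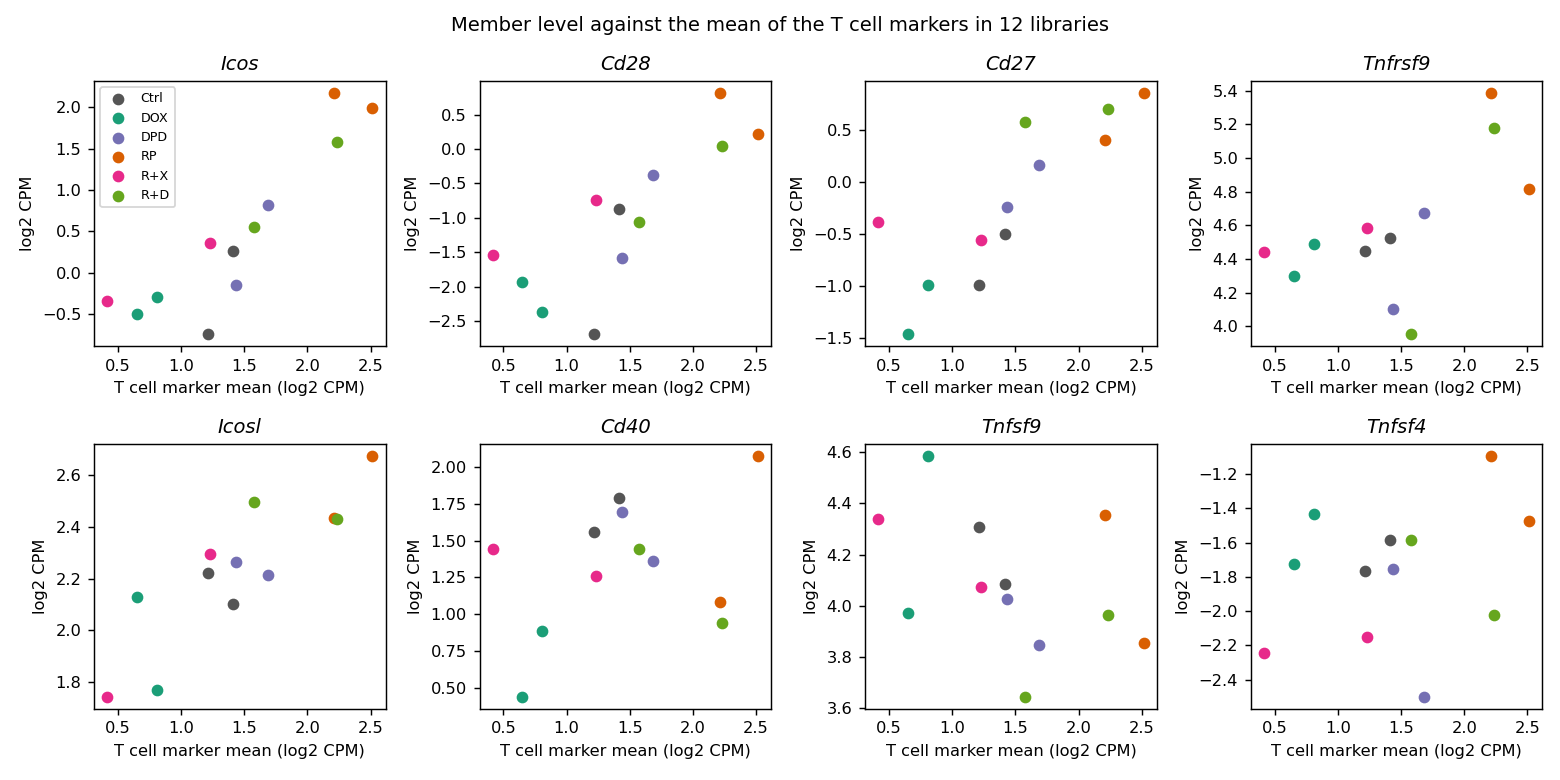
Log2 CPM of each tested member against the mean log2 CPM of 15 T cell markers, 1 point per library coloured by group. Icos, Cd28, Cd27 and Icosl climb with the marker mean, RP and R+D 2 lie at its upper end, and Tnfsf9, Cd40 and Tnfsf4 show no such slope.

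The T cell marker list itself was higher in RP than in Ctrl for all 15 of its tested genes (edgeR median 1.18) and lower in DOX for all 15 (median -0.58), with 0 called in either. Within it, Cd3e was at 3.75 and 4.02 CPM in Ctrl and 6.78 and 5.45 in RP. With the T cell marker mean as a covariate, the difference of RP from Ctrl was 0.98 ± 0.63 for Icos, 0.78 ± 1.04 for Cd28, 1.13 ± 0.65 for Cd27 and -0.08 ± 0.52 for Tnfrsf9 (edgeR adjusted p from 0.860 to 0.975). With the mean of the 12 muscle markers as the covariate the values were 1.53 ± 0.60, 1.43 ± 0.94, 1.17 ± 0.55 and 0.04 ± 0.42 (adjusted p from 0.557 to 0.977). Both means differ between RP and Ctrl, so the standard errors are wide, and the shares of group, T cell RNA and muscle RNA cannot be told apart in these libraries. Regulatory T cell markers (6 genes, Tnfrsf18 among them) summed to 30.4 and 26.8 CPM in RP against 11.9 and 10.7 in Ctrl, and B and plasma cell markers to 25.7 and 16.5 against 3.79 and 2.92.

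**Figure D5:**
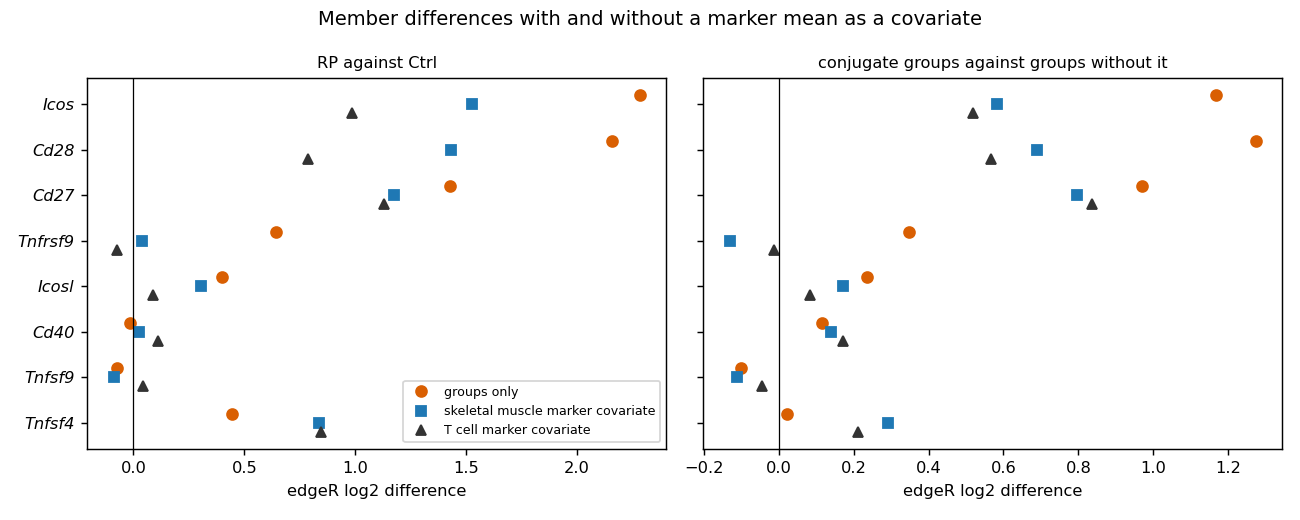
edgeR log2 difference of each tested member in RP against Ctrl (left) and in the conjugate contrast (right), from the fit on groups alone and with a skeletal muscle or T cell marker mean as covariate. In RP against Ctrl, Icos goes from 2.28 to 1.53 and 0.98, Cd28 from 2.16 to 1.43 and 0.78, and Cd27 from 1.43 to 1.17 and 1.13.

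Receptor and ligand levels were set against each other for 5 of 7 pairs, the CD27-CD70 and CD40-CD40L pairs having a ligand below the filter. Icos and Icosl were correlated over the 12 libraries (r = 0.714, permutation p = 0.00912, adjusted p = 0.0152; rho = 0.713, adjusted p = 0.0191). Without RP 1 and RP 2 r was 0.574 (permutation p = 0.0826), so the test did not pass without those 2 libraries, and within groups r was 0.0313. Cd28 was correlated with both of its ligands, Cd80 (r = 0.880, p = 0.00021, adjusted p = 0.000775; rho = 0.895, adjusted p = 0.0009) and Cd86 (r = 0.835, p = 0.00031, adjusted p = 0.000775; rho = 0.790, adjusted p = 0.00955). Without Ctrl 2 and RP 2 these were 0.820 and 0.830, and within groups 0.858 (exact p = 0.0313, adjusted p = 0.0781) and 0.515. The test did not pass for Tnfrsf9 and Tnfsf9 (r = 0.247, p = 0.441, adjusted p = 0.552; rho = 0.0979; r = 0.206 without RP 2 and R+D 2) or for Tnfrsf4 and Tnfsf4 (r = 0.126, p = 0.696, adjusted p = 0.696; rho = 0.0280; r = 0.116 without RP 1 and R+D 2). Within groups r was -0.642 for Tnfrsf4 and Tnfsf4 (exact p = 0.0313, adjusted p = 0.0781).

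The genes whose profile was most like that of Icos, over 12 libraries and 14790 genes compared, were the complement gene C4b (r = 0.973), C1ra (0.965), the granzyme gene Gzma (0.964), the interleukin receptor chain Il2rb (0.964) and Dennd1c (0.963). Most like Cd40 were the GM-CSF receptor chain Csf2ra (r = 0.920), Mmab (0.897), Acp5 (0.886), the class II invariant chain gene Cd74 (0.880) and Nrros (0.874). These are descriptions of the highest values among many genes and carry no test.

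Other costimulatory genes were read from the same fits. Of 27 further receptors and ligands in the table, 26 were tested, and in RP against Ctrl 20 were positive with an edgeR median of 0.42; 0 were called and 5 had an unadjusted p under 0.05, all of them higher in RP; this is a share close to the 21.4% of all genes at that level. Cd2 of this list is also a T cell marker. The smallest p-values were those of Tnfrsf18, the receptor GITR (1.81 ± 0.41, adjusted p = 0.127, edgeR), the T and NK cell receptor gene Cd226 (1.23 ± 0.41, adjusted p = 0.170), Cd80 (1.02 ± 0.38, adjusted p = 0.184) and Cd86 (1.01 ± 0.27, adjusted p = 0.136). In CPM, Tnfrsf18 averaged 8.81 in RP and 2.51 in Ctrl, and Cd86 was at 8.98 and 13.5 in RP against 5.44 and 5.76 in Ctrl. In the conjugate contrast 20 of 26 were positive with a median of 0.17, and the leading genes were Tnfsf15, for which no fold is given because its mean of 0.0683 CPM without the conjugate (0.340 with it) is near the level of 3 counts, Tnfrsf18 (0.92 ± 0.23), Cd86 (0.39 ± 0.15) and Tnfrsf13c (-0.28 ± 0.12), with 0 called.

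Of 35 signalling genes downstream of these receptors 34 were tested, and in RP against Ctrl 26 were positive, with a median of 0.33; 0 were called by edgeR and 13 had an unadjusted p under 0.05, all higher, where 21.4% of all genes stood. The leading genes were Prkcq, the kinase PKC-theta (2.18 ± 0.53, adjusted p = 0.128, edgeR), Il2rb (1.34 ± 0.28, adjusted p = 0.127), the NF-kappaB inhibitor Tnfaip3 (0.99 ± 0.26, adjusted p = 0.142) and the PI3K subunit gene Pik3cd (0.98 ± 0.22, adjusted p = 0.127). Prkcq averaged 2.06 CPM in RP and 0.451 in Ctrl, and Il2rb 29.2 and 11.5. In the conjugate contrast 23 of 34 were positive, with a median of 0.15; Prkcq was at 1.01 ± 0.30, Il2rb at 0.65 ± 0.16, Pik3cd at 0.61 ± 0.13 and Tnfaip3 at 0.46 ± 0.15, with 0 called. The median over all 19525 genes was 0.06 in RP against Ctrl and 0.03 in the conjugate contrast.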

How the data were processed

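RNA-seq counts came from 12 MC38 tumour libraries. The authors deposited raw counts per gene; per the submitters' processing notes HISAT2 2.1.0, StringTie 1.3.5, DESeq2 and the GRCm38 build were used, without their roles. The annotation and the use of strand are not given in the sources. Suffixed rows (2 each for Icos and Cd28, 1 for Tnfrsf9) were kept apart in the main fit and summed in an alternative.

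Groups came from the agent label. In R 4.3.3, 1 edgeR 4.0.16 quasi-likelihood fit with TMM scaling and filterByExpr held all 12 libraries in 6 groups (19525 genes tested, 6 residual degrees of freedom, Benjamini-Hochberg threshold 0.05) and was tested on simulated data. With 46547114 to 56462259 counts per library, 8 of 10 members passed the filter. Alternatives used DESeq2 1.42.0, limma 3.58.1, other scaling, filtering, groups and covariates, and each library left out. Correlations used log2 CPM (prior count 2), 100000 resamples and, within groups, 64 exchanges. Exon lengths were the union of GENCODE M21 exons.

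All 10 members are named with all values; a log2 difference has its error where the unadjusted p was under 0.05, and in both prodrug comparisons every member is given. Up to 4 genes with the smallest p are named per other list, and 5 per profile. Members and lists were chosen with earlier results of these data known. The replicate numbers follow accession order and pair nothing.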

Additional observations from a re-analysis of the deposited data

Results flagged for a closer look

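For Tnfsf4, the OX40 ligand gene, the libraries were ordered in opposite directions with and without DOX. Both RP libraries (0.320 and 0.429 CPM) stood above both Ctrl libraries (0.294 and 0.255), while both R+X libraries (0.186 and 0.172) stood below both DOX libraries (0.331 and 0.263). The difference of the 2 log2 differences was -1.16 ± 0.89, and the edgeR interaction test did not pass (adjusted p = 0.998). The values rest on 9 to 26 counts per library. The 95% intervals of both differences include 0: -0.93 to 1.81 for RP against Ctrl and -2.14 to 0.70 for R+X against DOX. All 8 tested members were searched for such opposite orders with either drug. With so few libraries such an order carries little weight, and its share over all genes was not counted. The route of DOX also differed between R+X and DOX, and the conjugate dose in R+X is not stated.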

How the results depend on the processing

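Of the recomputed counts of members called, 177 equalled the reported ones and 5 did not. DESeq2 called 2 members in RP against Ctrl, 2 in the conjugate contrast and 1 in R+X against RP, and the RP and Ctrl libraries alone gave 1. Leaving out a library gave 0 to 2 in the conjugate contrast, 2 without DOX replicate 2. Summed name copies, RLE scaling and no filter on low counts changed no count. Of the recomputed log2 differences 353 kept direction and side of the threshold, 8 passed it and 14 changed sign. With the T cell covariate, Icos was at -0.27 and Tnfrsf9 at -0.58 in DPD against DOX; Icos at -0.30, Cd28 at -0.86 and Tnfrsf9 at -0.68 in R+D against R+X; and Cd28 at 0.36 in R+X against RP. With the muscle covariate, Tnfrsf9 was at -0.14 in DPD against DOX and -0.47 in R+D against R+X, and Cd28 at -0.032 there. limma-voom gave -0.0076 for Tnfrsf9 in DPD against DOX. Leaving out a library moved Tnfrsf9 from -0.30 to 0.28 in DPD against DOX and from -0.57 to 0.64 in R+D against R+X, and Cd40 there from -0.44 to 0.080. As deviations from group means, r was 0.0313 for Icos-Icosl, 0.858 for Cd28-Cd80, 0.515 for Cd28-Cd86 and -0.642 for Tnfrsf4-Tnfsf4; against T cell markers it was 0.769 for Icos, 0.472 for Icosl, 0.583 for Cd28, 0.332 for Cd27, -0.0967 for Cd40 and -0.373 for Tnfsf4. Without the 2 outermost libraries r was 0.574 for Icos-Icosl and -0.0045 for Tnfsf4 with T cell markers. The exchange test on deviations from group means could hardly pass after adjustment. The cause was not tested, and 27 other correlations kept direction and side. No paired analysis was possible because the replicate numbers only follow accession order. Depth limits Cd70, Cd40lg, Tnfsf4 and Cd28.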
